A study of Mus musculus with 8 samples.

Results

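The comparison described here set Tek-Cre:Lama5-/- mice against the WT mice labelled as their control, in single cells from the cerebral cortex. Members were the 2 knockout libraries and the 2 WT libraries, 4 of the 8 samples in the series, and every barcode with at least 500 detected genes and less than 15% of its unique molecular identifiers (UMIs, counted RNA molecules) from mitochondrial genes. This left 8556 and 8527 WT cells and 8337 and 8553 knockout cells, 33973 in all. The mice were 8 weeks old, and the brains of 3 mice were pooled per genotype before the tissue was dissociated with papain, DNase and Liberase. The 2 libraries of a genotype therefore came from 1 pool, so that differences between mice of a genotype were not measured and every p-value below compares 2 pools. Genotype, pool and any difference in handling between the pools cannot be told apart. Tek-Cre is a recombinase under the Tek (Tie2) promoter. It acts in the endothelial lineage and also in many blood-derived cells. The labels do not say whether the WT mice carried Tek-Cre or floxed Lama5 alleles.

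As background, laminins are heterotrimers of an alpha, a beta and a gamma chain that polymerise into the sheet of the basement membrane. Endothelial cells of the brain contribute mainly the alpha4 chain (Lama4) and the alpha5 chain (Lama5) to the basement membrane of vessels, and astrocytes and mural cells contribute further chains. Cells bind laminins through integrins, dystroglycan and Bcam, and signals from these contacts reach the cytoskeleton through focal adhesions. Mural cells are the smooth muscle cells of arterioles and the pericytes of capillaries, and astrocyte endfeet lie on the outer side of the vascular basement membrane.

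Cells were sorted into 4 broad classes by short marker lists, each class requiring 3 detected markers and at least 0.8 of all marker UMIs in the cell. The endothelial-like class was led by Cldn5, Abcb1a and Ptprb, the mural-like class by Tagln, Acta2 and Rgs5, the glial-like class by genes that included the myelin genes Ermn, Mog and Cldn11, and the immune-like class by Lyz2, C1qc and Fcer1g. Glial-like cells were mostly oligodendrocyte-like, and immune-like cells mostly microglia-like. Markers of the labelled tissue's vascular and glial cells were present, but neuron-like cells made up less than 1% of the kept cells in each library. Knockout libraries were shallower: kept cells held 44377513 and 41887858 UMIs in WT and 35960818 and 34450554 in knockout, and the median cell held 3982 and 3757 UMIs against 3277 and 3039. Of the kept barcodes, 16 to 24 were shared by any pair of these libraries. No doublet caller was run, and cells with mixed markers were left out of the classes.

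The make-up of the captured cells differed between the genotypes: immune-like cells took a larger share in knockout, and glial-like and endothelial-like cells a smaller one. Immune-like cells were 7.91% and 7.48% of kept cells in WT and 13.2% and 12.4% in knockout, a difference of 5.13 percentage points. Microglia-like cells within that class were 6.83% and 6.37% in WT and 11.96% and 11.1% in knockout. Neither range overlapped between the genotypes.

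Glial-like cells were 17.6% and 16.7% in WT and 12.03% and 13.04% in knockout, 4.60 points lower. Oligodendrocyte-like cells were 14.3% and 12.7% in WT and 9.84% and 10.6% in knockout, and astrocyte-like cells 3.24% and 3.79% against 2.14% and 2.27%. Endothelial-like cells were 61.0% and 61.8% in WT and 58.5% and 57.5% in knockout, 3.40 points lower. Mural-like cells differed least, at 6.63% and 7.19% in WT and 7.43% and 7.71% in knockout, 0.66 points higher. None of these 4 class ranges overlapped, and an exact two-sided permutation test of 2 libraries against 2 gave p = 0.333 for each class, the smallest p this design allows. These are shares of cells that survived dissociation and the filters, so that more cells of a type cannot be told apart from better recovery of it. With every cell thinned to 1000 UMIs the differences were 4.91, -4.91, -3.69 and 0.79 points for the immune-like, glial-like, endothelial-like and mural-like classes.

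**Figure D1:**
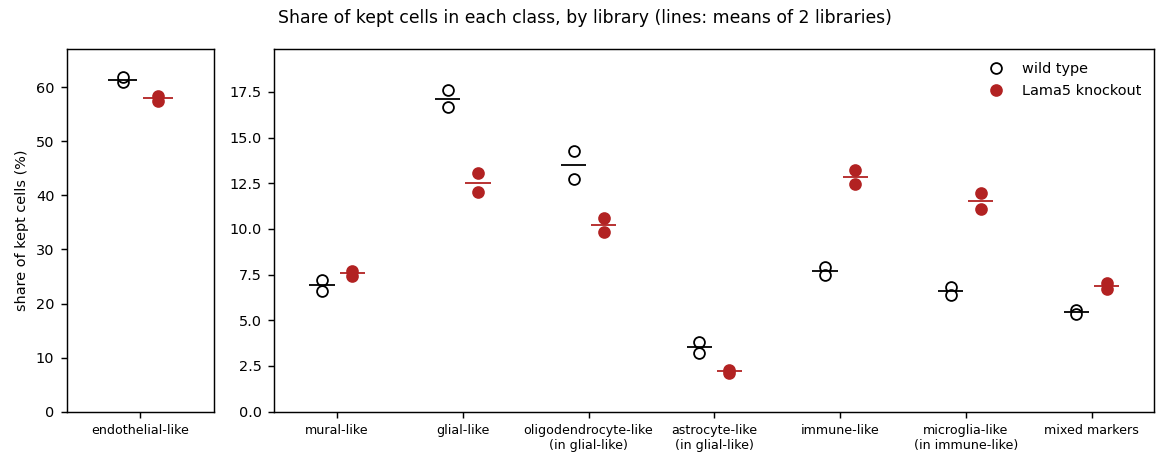
Percent of kept cells (vertical axis) in each marker class and subclass, by library; open circles are the 2 WT libraries, red circles the 2 knockout libraries and short lines the mean of each pair. Immune-like and microglia-like cells sit higher in both knockout libraries, at 13.2% and 12.4% for the immune-like class, and glial-like cells sit lower.

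Raw UMIs were summed per library within each class and compared with edgeR's quasi-likelihood test. Values are UMIs per 1000000 UMIs of the class (CPM) after TMM scaling, and changes are log2 of knockout over WT with their standard error (SE). A gene is called when its Benjamini-Hochberg adjusted p over all genes of that class is below 0.05. Levels of subclasses and of the other WT pool of the series are CPM without TMM scaling. Subclass changes come from TMM-scaled fits, so they need not match the ratio of the printed levels. Over all kept cells together 2426 of 16330 genes were higher (14.9%) and 1960 lower (12%), and without knockout library 1 the total of 4386 dropped to 2673. In endothelial-like cells 1471 of 13420 genes were higher (11%) and 1209 lower (9.01%). In mural-like cells 448 of 10256 were higher (4.37%) and 137 lower (1.34%), 585 together and 384 without WT library 1. In glial-like cells 558 of 11897 were higher (4.69%) and 515 lower (4.33%), 1073 together, 139 without knockout library 1 and 193 without knockout library 2. In immune-like cells 700 of 10049 were higher (6.97%) and 392 lower (3.9%), 1092 together and 675 without knockout library 1. Most changes were small: 149 endothelial-like, 53 mural-like, 114 glial-like and 90 immune-like genes were called with a change of at least 1 on the log2 scale. The median change over all genes lay between -0.02 and 0 in every class.

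Lama5, the targeted gene, encodes the alpha5 chain and lies on the minus strand of chromosome 2 at positions 180176373 to 180225859 (RefSeq, GRCm38.p6). In endothelial-like cells it stood at 41.2 and 40.7 CPM in WT and at 22.6 and 25.2 in knockout, from 1011 and 979 against 444 and 450 UMIs. Both knockout values were below both WT values, and Lama5 was 0.58 times the WT level (log2 change -0.78, SE 0.06, adjusted p = 4.41e-12). In mural-like cells, which carried more Lama5, it stood at 114 and 98.3 CPM in WT and at 105 and 118 in knockout. These ranges overlapped and the change was 0.06 (SE 0.10, adjusted p = 0.81).

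The difference between those 2 changes was -0.84 (SE 0.12, adjusted p = 2.01e-07), tested as an interaction between class and genotype with each library as a block. The mural-like Lama5 signal came from smooth muscle-like cells, at 152 and 132 CPM in WT and 133 and 148 in knockout, while pericyte-like cells held 4.89 and 9.43 CPM in WT and 4.57 and 0 in knockout. With pericyte-like cells alone on the mural side the difference was 0.73 (adjusted p = 1). Against the mean change of the other 3 classes the endothelial-like change did not pass the test (0.26, SE 0.51, adjusted p = 0.94). That mean includes glial-like cells, with 17 and 15 WT against 5 and 2 knockout Lama5 UMIs (log2 change -1.27, adjusted p = 0.18), and immune-like cells, with 2 and 1 against 1 and 0. Which exons the Lama5 allele removes is not given in the sources used here. The 3′ tags counted may come from outside the deleted part, so the remaining Lama5 UMIs do not measure how completely the gene was recombined.

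Lama4, the other major alpha chain of brain endothelium, moved the opposite way. In endothelial-like cells it stood at 29.7 and 30.7 CPM in WT and at 51.8 and 47.4 in knockout, 1.65 times the WT level (log2 change 0.72, SE 0.05, adjusted p = 3.50e-12). Both knockout values lay above both WT values. In mural-like cells Lama4 was 60.5 and 67.9 CPM in WT and 72.0 and 60.2 in knockout, with overlapping ranges and a change of 0.04 (adjusted p = 0.90). The endothelial-like minus mural-like difference for Lama4 was 0.68 (SE 0.13, adjusted p = 0.000654), but it was no longer called without WT library 2 (0.61, adjusted p = 0.12) or against smooth muscle-like cells alone (0.47, adjusted p = 0.29). None of the 8 laminin chains compared, Lama4 included, differed in endothelial-like cells from the mean change of the other classes. Pericyte-like cells held the most Lama4, at 149 and 167 CPM in WT and 156 and 117 in knockout (adjusted p = 0.85). The other WT pool of the series held 46.1 and 44.7 CPM of Lama4 and 62.3 and 63.1 CPM of Lama5 in endothelial-like cells. Its Lama4 level lay nearer to the knockout libraries than to the WT libraries of this comparison, and its depth per cell was higher. That pool was made for another comparison and enters no test here.

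Of the beta and gamma chains, Lamb2, the beta2 chain, was called lower in endothelial-like cells, at 122 and 123 CPM in WT against 104 and 106 in knockout (-0.22, SE 0.03, adjusted p = 1.93e-06). It was 202.7 and 206.9 CPM in the other WT pool, and in mural-like cells it changed by -0.10 (adjusted p = 0.41). Lamc1, the gamma1 chain found in most vascular laminins, stood in endothelial-like cells at 47.0 and 45.6 CPM in WT and 45.2 and 44.8 in knockout (-0.04, adjusted p = 0.60). Lama2, a chain made by astrocytes and mural cells, was 92.7 and 99.1 CPM in WT and 121 and 103 in knockout mural-like cells (0.23, adjusted p = 0.20), and 23.7 and 24.3 against 26.4 and 26.6 CPM in glial-like cells (0.14, adjusted p = 0.46). Lamc3 in mural-like cells was 105 and 114 CPM in WT and 108 and 110.3 in knockout (adjusted p = 0.99).

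Lamb1, the beta1 chain, was sparse in endothelial-like cells, where its change of 0.85 was not called (adjusted p = 0.12) except without knockout library 2 (1.38, adjusted p = 0.00622). In all, 1 laminin chain was higher and 2 were lower of 9 tested in endothelial-like cells, beside 11% and 9.01% of all genes. None of 7 was called in mural-like cells, of 5 in glial-like cells or of 2 in immune-like cells.

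**Figure D2:**
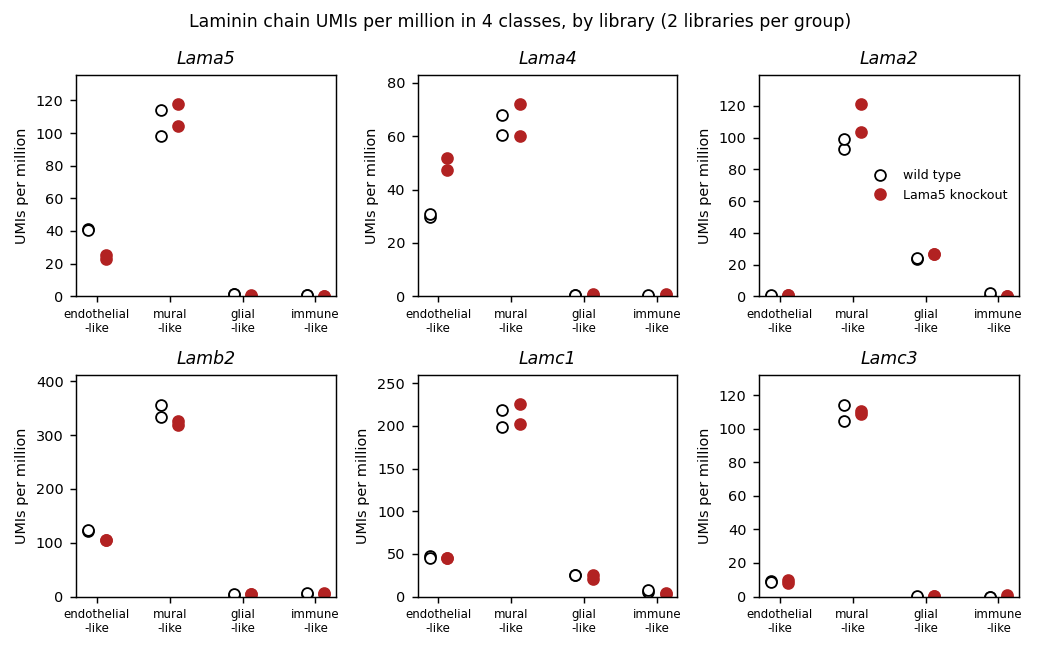
CPM (vertical axes, from 0) of 6 laminin chains in the 4 classes, by library; open circles are WT and red circles knockout. In endothelial-like cells Lama5 sits at 41.2 and 40.7 in WT and 22.6 and 25.2 in knockout, and Lama4 at 29.7 and 30.7 in WT and 51.8 and 47.4 in knockout, while the mural-like values of both chains overlap.

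Other components of the basement membrane were lower in knockout endothelial-like cells. Of 12 tested genes 6 were lower and none higher, with a median change of -0.16 beside 0 for all genes and 9.01% of all genes called lower. Sparc, a collagen-binding matricellular protein, stood at 1355 and 1331 CPM in WT and 1079 and 1017 in knockout (-0.36, SE 0.02, adjusted p = 1.23e-14). Agrn, the heparan sulphate proteoglycan agrin, stood at 145 and 141 CPM in WT and 113 and 115 in knockout (-0.32, adjusted p = 7.45e-10). The alpha1 and alpha2 chains of collagen IV, the network-forming collagen of basement membranes, were lower too: Col4a1 at 608 and 585 against 530 and 510.4 CPM (-0.20) and Col4a2 at 326 and 317 against 276 and 269 CPM (-0.24, adjusted p = 3.78e-09). For each of these 4 genes both knockout values lay below both WT values. Perlecan (Hspg2, -0.21) and Tinagl1 (-0.13) completed the 6 genes called lower.

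Only 3 of those falls were shown to differ from the change in mural-like cells: Col4a2 by -0.30 (adjusted p = 0.00673), Col4a1 by -0.24 (adjusted p = 0.00966) and Sparc by -0.20 (adjusted p = 0.0162). In that comparison, which was added after the data were seen, 62 of 13449 genes lay above 0 (0.461%) and 118 below (0.877%). Agrn (-0.30, adjusted p = 0.080) and Hspg2 (-0.28, adjusted p = 0.54) did not pass it. Against the mean change of the other 3 classes, none of 11 basement membrane genes compared differed in endothelial-like cells. There Sparc differed by -0.17 (adjusted p = 0.12), Col4a2 by -0.10 (adjusted p = 0.99) and Col4a1 by -0.02. In mural-like cells 1 basement membrane gene was higher and 2 lower of 13, beside 4.37% and 1.34% of all genes. Sparcl1, a matricellular protein related to Sparc, rose from 3083 and 3194 to 3660 and 3391 CPM (0.17, adjusted p = 0.00135) and stood apart from the other classes by 0.52 (adjusted p = 0.00011). Without knockout library 1 its change was 0.11 (adjusted p = 0.00524). Sparc (-0.16, adjusted p = 0.022) was not called without WT library 1 (-0.12, adjusted p = 0.30) or knockout library 1 (-0.12, adjusted p = 0.14). Tinagl1 (-0.20, adjusted p = 0.042) was not called without WT library 1 (-0.18, adjusted p = 0.24), WT library 2 (-0.22, adjusted p = 0.13) or knockout library 2 (-0.14, adjusted p = 0.31).

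Among laminin receptors, 1 of 10 was higher and 2 were lower in endothelial-like cells, beside 11% and 9.01% of all genes. Itga1, the alpha1 integrin subunit that pairs with beta1 to bind collagen IV and laminin, stood at 506 and 495 CPM in WT and 424 and 415 in knockout endothelial-like cells (-0.25, adjusted p = 9.33e-11). It also fell in mural-like cells, from 871 and 876 to 762 and 748 CPM (-0.21, adjusted p = 0.00206). Bcam, the Lutheran glycoprotein and a receptor for the alpha5 chain, stood at 151 and 157 CPM in WT and 137 and 136 in knockout endothelial-like cells (-0.17, adjusted p = 5.53e-05), with no overlap. Bcam in mural-like cells (-0.22, adjusted p = 0.016) was not called without WT library 1 (-0.22, adjusted p = 0.091), WT library 2 (-0.21, adjusted p = 0.14) or knockout library 1 (-0.20, adjusted p = 0.095). Mcam, an adhesion molecule that binds the alpha4 chain, rose by 0.29 in endothelial-like cells (adjusted p = 0.015) but not without WT library 2 (0.24, adjusted p = 0.072) or knockout library 1 (0.11, adjusted p = 0.57), and its change was 0.43 without knockout library 2. In immune-like cells Itgav, the alpha-v integrin subunit, rose from 121 and 128 to 182 and 178 CPM (0.53, adjusted p = 9.91e-05).

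Focal adhesion genes moved in both directions: 5 were higher and 3 lower of 14 in endothelial-like cells, with a median of 0.02. The shares over all genes were 11% and 9.01%. Zyx, the zyxin that marks tensioned adhesions, rose from 46.8 and 46.0 to 59.7 and 59.4 CPM (0.36, adjusted p = 1.58e-07), and the adaptor Bcar1 by 0.25. Talin 1 (Tln1, -0.16) and Rsu1 (-0.15) were lower. In mural-like cells Fermt2, which activates integrins with talin, rose from 748 and 737 to 837 and 898 CPM (0.22, adjusted p = 0.00168).

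A set of 61 genes changed the same way in all 4 classes: of the 8488 genes tested in each class, 55 were higher in every class (0.648%) and 6 lower in every class (0.0707%). The set dropped to 12 without knockout library 1 and to 12 without knockout library 2. By contrast 1069 genes were higher and 1034 lower in exactly 1 class, and 139 were higher in 1 class and lower in another.

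The largest shared difference was Ttr, transthyretin, a transport protein made in quantity by the choroid plexus epithelium. Endothelial-like cells held 15 Ttr UMIs in the 2 WT libraries together and 3004 in the 2 knockout libraries, a ratio of 259 (exact 95% interval 157 to 463, counting error only). Mural-like cells held 3 against 393 (ratio 155, 52.7 to 755), glial-like cells 1 against 716 and immune-like cells 1 against 687. In the class sums of this WT pool Ttr was at most 0.766 CPM, and in those of both knockout libraries it was 60.7 to 116 CPM.

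Values on choroid plexus cells moved with it: choroid plexus-like cells were 0.0117% and 0% of kept cells in WT and 0.0720% and 0.0702% in knockout, and over all kept cells Ttr stood at 31.7 and 0.161 CPM in WT against 1458 and 785 in knockout. In the other WT pool, Ttr stood at 94.9 to 228 CPM in the 4 classes. The part of choroid plexus RNA in the Ttr difference was not tested. Counts of a gene that another cell type makes in quantity can enter every droplet as free RNA, so the class values are not read as expression by those cells.

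Another large shared rise was that of Gm42418, a gene model that overlaps a ribosomal RNA repeat on chromosome 17. In endothelial-like cells it rose from 34410 and 33710 to 64430 and 71270 CPM, a log2 change of 0.99, and it changed by 1.05, 1.12 and 1.02 in mural-like, glial-like and immune-like cells. Both knockout libraries lay far above both WT libraries in each class. AY036118, on the opposite strand within the same repeat, rose by 0.42 to 0.53 across the classes, and without strand information the 2 models cannot be separated with certainty. Lars2, the mitochondrial leucyl-tRNA synthetase, whose annotation includes sequence resembling ribosomal RNA, rose from 813 and 779 to 1343 and 1480 CPM in endothelial-like cells (0.83) and by 0.93, 0.80 and 0.63 in mural-like, glial-like and immune-like cells. The other WT pool held only 7525 and 7284 CPM of Gm42418 in endothelial-like cells, so its level also varied between WT pools. The part of ribosomal RNA carry-over in these 3 genes was not tested.

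Brd2, a bromodomain protein that binds acetylated histones, rose in every class, with no overlap between genotypes. It went from 771 and 773 to 976 and 932 CPM in endothelial-like cells (0.31), from 410.3 and 428 to 627 and 625 in mural-like cells (0.58), from 195 and 209 to 312 and 293 in glial-like cells (0.58) and from 1044 and 989 to 1401 and 1354 in immune-like cells (0.44). The calls of Ttr, Gm42418, Lars2, AY036118 and Brd2 held in all 4 classes without any 1 library. The call of Zfp131 did not: in glial-like cells it (0.25) gave an adjusted p of 0.073 without WT library 1, 0.15 without knockout library 1 and 0.21 without knockout library 2.

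The chemokine Ccl4 was called in every class as well, at changes of 0.69, 1.37, 0.87 and 0.19 in endothelial-like, mural-like, glial-like and immune-like cells, but its level was 4967 and 5118 CPM in WT immune-like cells against 20.6 and 25.99 in endothelial-like cells. In glial-like cells Ccl4 was not called without knockout library 1 (0.92, adjusted p = 0.063) or knockout library 2 (0.82, adjusted p = 0.087). Of the 55 shared higher genes 10 differed by more than 10 times in level between classes, and of the 6 shared lower genes 4 did. Immune-like cells were a larger share of knockout cells, and the part of their RNA in such genes was not tested.

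Of the 6 shared lower genes, Fabp7 and Aldoc are astrocyte genes, with median changes over the classes of -1.38 and -0.93 and their highest level in glial-like cells, and astrocyte-like cells were a smaller share of the knockout libraries. The part of astrocyte RNA in them was not tested. Btg2, an antiproliferative early-response gene, stood at 1690 and 1732 CPM in WT and 1290 and 1327 in knockout endothelial-like cells, and it changed by -0.39, -0.33, -0.40 and -0.63 in endothelial-like, mural-like, glial-like and immune-like cells. Fos, the early-response transcription factor, changed by -0.14, -0.37, -0.27 and -0.40 and Hnrnpa0 by -0.32, -0.36, -0.31 and -0.45 in the same order. In glial-like cells Btg2 was not called without knockout library 2 (-0.26, adjusted p = 0.21), Fos was not called without knockout library 1 (-0.32, adjusted p = 0.11) or 2 (-0.21, adjusted p = 0.28) and changed by -0.13 without WT library 2, and Hnrnpa0 was not called without knockout library 1 (-0.37, adjusted p = 0.061) or 2 (-0.25, adjusted p = 0.15).

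**Figure D3:**
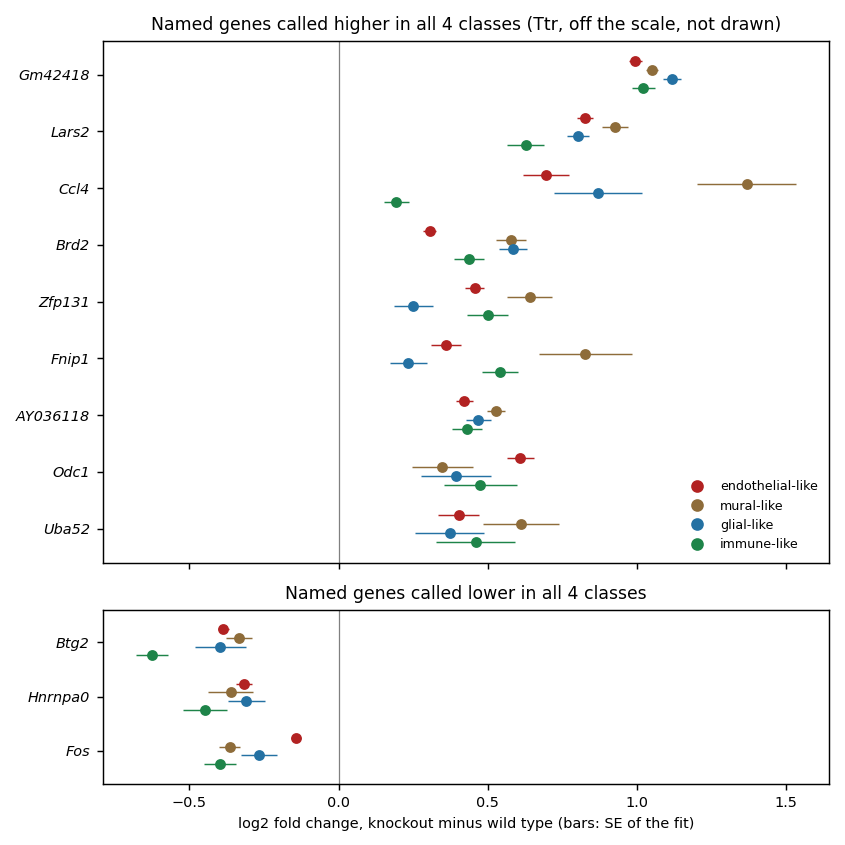
Log2 change of knockout over WT (horizontal axis, bars are SE) in the 4 classes for the named genes called the same way in all classes, higher in the upper panel and lower in the lower panel; Ttr is off the scale and not drawn. Gm42418 lies between 0.99 and 1.12 in all 4 classes, while Ccl4 spreads from 0.19 to 1.37.

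Genes for ribosomal proteins were often higher in 3 of the classes. In endothelial-like cells 77 of 92 were higher and none lower (median 0.14, beside 11% of all genes higher), in mural-like cells 37 of 89 (median 0.13, beside 4.37%) and in glial-like cells 46 of 91 (median 0.13, beside 4.69%). In immune-like cells 3 of 89 were higher and 1 lower (median 0, beside 6.97% of all genes higher), and 22 had a change significantly below that of the other classes.

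The subclasses had fewer or more calls than their class, so list counts are read against their own shares. Of all genes tested, 8.35% were higher and 4.8% lower in microglia-like cells, 5.74% and 5.03% in oligodendrocyte-like, 0.67% and 0.831% in astrocyte-like, 3.51% and 0.874% in smooth muscle-like and 0.197% and 0.0657% in pericyte-like cells. Of the ribosomal protein genes 18 of 89 were higher and 1 lower in microglia-like cells (median 0.08), 56 of 91 higher and 1 lower in oligodendrocyte-like cells and 20 of 88 higher in smooth muscle-like cells. None of 85 was called in astrocyte-like cells (median -0.22) and none of 84 in pericyte-like cells (median 0.15), where few genes of any kind were called.

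Of 14 heat shock genes more were higher than lower: 9 and 2 in endothelial-like, 4 and 3 in mural-like, 4 and 0 in glial-like and 6 and 2 in immune-like cells, with medians of 0.15, 0.05, 0.13 and 0.10. The inducible chaperones Hspa1b and Hspa1a went against that count and were lower in endothelial-like cells (Hspa1b 474 and 493 against 328 and 320 CPM, -0.58, adjusted p = 7.29e-19), in mural-like cells (Hspa1b 1748 and 1674 against 1252 and 1286 CPM, -0.43) and most in immune-like cells (Hspa1b 353 and 339 against 143 and 147 CPM, -1.26, adjusted p = 4.47e-10). In glial-like cells Hspa1a rose instead, from 95.6 and 90.8 to 134 and 120 CPM (0.44), though astrocyte-like cells alone gave -1.40. Hspa5, the chaperone of the endoplasmic reticulum, rose by 0.29 in endothelial-like and in mural-like cells. Over all genes, 11% were higher and 9.01% lower in endothelial-like and 4.37% and 1.34% in mural-like cells. The shares were 4.69% and 4.33% in glial-like and 6.97% and 3.9% in immune-like cells. Heat shock genes are known to respond to dissociation of tissue, and genotype and the handling of the pools cannot be told apart.

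A narrower set of genes was called in 1 class, differed there from the mean of the other 3 by the interaction test and was not called in the same direction in any other class. A call in the opposite direction elsewhere was allowed, and 13, 13, 19 and 26 of the higher and 19, 5, 33 and 45 of the lower genes of endothelial-like, mural-like, glial-like and immune-like cells had one. Of 13862 genes in that fit, 35 were higher (0.252%) and 38 lower (0.274%) in endothelial-like cells. The total of 73 was 40 without WT library 1, 47 without WT library 2, 41 without knockout library 1 and 47 without knockout library 2. In mural-like cells 32 were higher (0.231%) and 8 lower (0.0577%), 40 together, 17 without WT library 1 and 26 without knockout library 1. In glial-like cells 49 were higher (0.353%) and 75 lower (0.541%), 124 together, 25 without knockout library 1 and 38 without knockout library 2. In immune-like cells 159 were higher (1.15%) and 103 lower (0.743%), 262 together and 125 without knockout library 1. The genes named below kept their call within the class without any 1 library, except where values say otherwise.

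With DESeq2 in place of edgeR, some of the genes named were not called, at adjusted p-values of 0.054 to 0.63. In endothelial-like cells these were Mcam, Mgp, Gja4, Ackr1, Ifitm3, Mfsd2a, Pgf, Apln and Angpt2, in mural-like cells Bcam, Sparc, Tinagl1, Des and Hnrnpa0, and in glial-like cells Zfp131, Btg2, Fos and Hnrnpa0. DESeq2 did not call Gclm in endothelial-like cells either. The replicate number as a block ended the mural-like calls of Bcam (adjusted p = 0.053), Sparc (0.082), Tinagl1 (0.083) and Des (0.053).

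The higher genes of this kind in endothelial-like cells included an adhesion molecule, an MHC class I gene and an iron receptor. Vcam1, the adhesion molecule that captures leukocytes, stood at 145 and 146 CPM in WT and 236 and 240.1 in knockout (0.71, SE 0.03, adjusted p = 9.92e-20), and its change lay 1.09 above that of the other classes (adjusted p = 0.00324). In glial-like cells Vcam1 was called lower (-0.78, adjusted p = 0.00107), and this fall enters the difference of 1.09. Glial Vcam1 lay mostly in astrocyte-like cells, at 243 and 201 CPM in WT and 181 and 149 in knockout. Its change there was -0.41 and was not called (adjusted p = 0.26). Oligodendrocyte-like cells held at most 1.7 CPM. Astrocyte-like cells were a smaller share of the knockout libraries, and the part of that shift in the glial-like fall was not tested. H2-Q7, a non-classical MHC class I gene, stood at 15.6 and 17.3 CPM in WT and 43.6 and 48.2 in knockout (1.48, SE 0.07, adjusted p = 7.61e-18). H2-Q6 rose alongside from 7.22 and 6.32 to 21.5 and 24.7 CPM (1.76), and since H2-Q6 and H2-Q7 are near-identical copies the counting could not assign their reads with certainty. Both knockout libraries were above both WT libraries for all 3 genes, which for Vcam1 and H2-Q7 was a condition for naming them.

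Tfrc, the transferrin receptor that carries iron across the blood-brain barrier, rose from 281 and 286 to 380 and 363 CPM (0.39, adjusted p = 5.78e-14), 0.32 above the other classes. Mgp, the matrix Gla protein of arterial endothelium, was higher at 624 and 788 against 546 and 496 CPM (0.44, adjusted p = 3.33e-08), with knockout library 2 well above library 1, its change was 0.26 without knockout library 2, and DESeq2 gave it an adjusted p of 0.13. The change of Zyx, described above, lay 0.31 above the other classes. Of the lower genes, Fam117b stood at 172 and 170 CPM in WT and 128 and 124 in knockout (-0.44, adjusted p = 2.58e-13), Efnb1, the ligand ephrin-B1, at 75.1 and 71.6 against 56.8 and 57.5 (-0.36), and Retreg1, a receptor for autophagy of the endoplasmic reticulum, at 36.2 and 31.5 against 23.3 and 26.1 (-0.46).

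Markers of venous endothelium were mostly higher, 9 of 12 with 1 lower and a median of 0.27, beside 11% of all genes called higher. Of these 12 changes 1 lay above those of the other classes and none below. Lcn2, the iron-siderophore-binding lipocalin 2, stood at 9.34 and 8.15 CPM in WT and 50.8 and 48.3 in knockout (2.50, SE 0.07, adjusted p = 2.64e-23). Lcn2 is also in the list of reactive astrocyte genes, and its difference from the other classes (1.66) was not called. Lrg1, a secreted modulator of TGF-beta signalling, rose from 4.36 and 3.45 to 10.3 and 8.33 CPM (1.26), and Ch25h, cholesterol 25-hydroxylase, from 17.8 and 21.6 to 33.1 and 32.5 (0.74, adjusted p = 9.31e-10). Knockout and WT did not overlap for any of them. Ackr1 (1.28), the venular chemokine receptor, rested on few UMIs and was not called without WT library 2 (0.56, adjusted p = 0.13), while its change was 2.81 without WT library 1. Slc38a5, a glutamine transporter, was the venous gene that was lower (-0.14).

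Of 13 arterial markers tested 5 were higher and none lower (median 0.11), beside 11% of all genes called higher. Gkn3 stood at 243 and 235 CPM in WT and 308 and 355 in knockout (0.47, adjusted p = 3.74e-12), Edn1, the vasoconstrictor endothelin 1, at 390.1 and 376 against 466 and 462 (0.28), and Alpl, alkaline phosphatase, at 124 and 115 against 140 and 148 (0.26). Gja4, the gap junction protein connexin 37, was the fifth (0.25, adjusted p = 0.00438), and it was not called without WT library 2 (0.19, adjusted p = 0.066) or knockout library 2 (0.16, adjusted p = 0.15). The shares of arterial and venous cells within the class were not separated.

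Inflammatory genes diverged. Of 15 chemokine and cytokine genes 10 were higher and 1 lower in endothelial-like cells (median 0.45), beside 11% and 9.01% of all genes. Only 1 of the 15 changes lay above those of the other classes and none below, with a median difference of -0.12. The list includes Ccl4, which stood far higher in immune-like cells, and the part of their RNA was not tested. Cxcl1, a neutrophil chemoattractant, rose from 42.3 and 41.7 to 67.2 and 66.6 CPM (0.67, adjusted p = 1.64e-13), and Cxcl2 from 8.32 and 7.11 to 20.6 and 14.4 (1.19, adjusted p = 1.85e-09). Ptgs2, the inducible cyclooxygenase, rose from 28.8 and 29.7 to 66.0 and 56.5 CPM (1.07, adjusted p = 1.28e-15). Cxcl12, a homeostatic chemokine of vessels, was the lower member (-0.13). MHC class I genes were higher in 10 of 16, with 1 lower, beside 11% and 9.01% of all genes. Psmb8 of the immunoproteasome was among the higher, at 134 and 135 against 162 and 163 CPM (0.27).

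Interferon-stimulated genes went the other way in the same cells: 10 of 16 were lower and 2 higher (median -0.24), beside 9.01% of all genes called lower. Rsad2, the antiviral viperin, stood at 128 and 131 CPM in WT and 101 and 104 in knockout (-0.34, adjusted p = 5.43e-10), and Rtp4 at 74.6 and 77.8 against 60.0 and 58.6 (-0.36, adjusted p = 3.14e-08). Each knockout value lay below each WT value for both. The 2 higher members were Ifi27 (0.13) and Ifitm3 (0.06), and Ifitm3 was not called without WT library 2 (0.04, adjusted p = 0.31) or knockout library 2 (0.04, adjusted p = 0.26). In mural-like cells 1 of 11 was higher, beside 4.37% of all genes, and in glial-like cells 1 of 11 was lower (median -0.23), beside 4.33%. In immune-like cells none of 9 was called, beside 6.97% of all genes higher and 3.9% lower. In astrocyte-like cells 1 of 5 was lower (median -0.49), beside 0.831%. Of the 16 endothelial-like changes none lay below those of the other classes and 1 lay above, with a median difference of 0.04.

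Barrier genes changed modestly. Of 15 transporters of the blood-brain barrier 3 were higher and 6 lower in endothelial-like cells (median -0.03), beside 11% and 9.01% of all genes. Slc7a5, the large neutral amino acid transporter, fell from 609 and 620 to 510.1 and 502 CPM (-0.28, adjusted p = 3.46e-12), and Slc2a1, the glucose transporter GLUT1, was 3192 and 3253 CPM in WT and 2982 and 3001 in knockout (-0.11, adjusted p = 5.55e-06). Mfsd2a, the lipid transporter that limits transcytosis, was 194 and 199 against 207 and 213 CPM (0.10, adjusted p = 0.0091), but was not called without WT library 1 (0.08, adjusted p = 0.11) or knockout library 2 (0.07, adjusted p = 0.14). Of 13 junction genes 2 were higher and 2 lower, beside 11% and 9.01% of all genes. Klf2, the flow-responsive transcription factor, fell from 4263 and 4287 to 3528 and 3623 CPM (-0.26, adjusted p = 4.53e-14) and also fell in mural-like cells, from 609 and 610 to 422 and 469 (-0.45).

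Of 16 VEGF and angiopoietin genes 7 were higher and 2 lower in endothelial-like cells, beside 11% and 9.01% of all genes. Several of these rested on knockout library 1. Pgf, placental growth factor, stood at 1.63 and 1.33 CPM in WT and 7.02 and 3.02 in knockout (1.78, adjusted p = 3.91e-06), and without knockout library 1 its change was 1.02. The peptide ligand Apln stood at 1.92 and 1.58 against 10.6 and 2.68 CPM (1.96), and without knockout library 1 it was not called (0.61, adjusted p = 0.17). Angpt2, the context-dependent Tek ligand, likewise was not called without knockout library 1 (0.18, adjusted p = 0.41). Esm1, a tip-cell marker, held 3 WT and 32 knockout UMIs, a ratio of 13.8 (exact 95% interval 4.32 to 70.4). Pdgfb, which recruits pericytes, fell from 245 and 249 to 213 and 213 CPM (-0.21).

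RNA of other cell types also moved in the endothelial-like sums. Of 13 homeostatic microglia genes tested there 6 were higher and 1 lower (median 0.38), beside 11% and 9.01% of all genes. The water channel Aqp4 of astrocytes was lower by 1.07. These shifts run the same way as the shares of immune-like and astrocyte-like cells, and the part of free RNA or of doublets in the endothelial-like results was not tested.

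Mural-like cells had their largest class-specific gain in Spp1, the secreted phosphoprotein osteopontin, at 26.4 and 15.6 CPM in WT and 49.0 and 82.7 in knockout (1.64, SE 0.20, adjusted p = 9.05e-07). Almost all of its UMIs lay in pericyte-like cells, at 169 and 99.0 against 254 and 452 CPM (1.45, adjusted p = 0.014), while smooth muscle-like cells held 0 in both WT libraries. Akap12, a scaffold for protein kinase A, rose from 436 and 462 to 685 and 710.0 CPM (0.64, adjusted p = 1.55e-10), by 0.75 in smooth muscle-like and 0.09 (adjusted p = 0.87) in pericyte-like cells. Cwc25, a splicing factor, rose from 209 and 206 to 341 and 344 CPM (0.72, adjusted p = 1.01e-09), and Jmy, an actin nucleator, from 140 and 164 to 253 and 230 (0.67), against -0.07 in pericyte-like cells alone. Knockout and WT did not overlap for these 4 genes, which was a condition for naming them.

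Among the mural genes that were lower, Hes1, a Notch target, fell from 694 and 708 to 489 and 479 CPM (-0.53, adjusted p = 2.59e-09), 0.37 below the other classes. It changed by -0.56 in smooth muscle-like and by -0.28 (adjusted p = 0.48) in pericyte-like cells. Mef2c, a transcription factor of smooth muscle, fell from 953 and 926 to 789 and 812 CPM (-0.23, adjusted p = 0.000685). Its fall was called neither in smooth muscle-like cells alone nor in pericyte-like cells alone. Id1, a target of BMP signalling, fell from 294 and 300.2 to 217 and 223 CPM (-0.43, adjusted p = 1.86e-05). Osmr, the oncostatin M receptor, rose from 54.0 and 53.1 to 82.0 and 80.0 CPM (0.60, adjusted p = 0.00042), and Nfkbia, the NF-kappa-B inhibitor, from 529 and 534 to 641 and 724 (0.36). Contractile genes hardly moved, with none higher and 1 lower of 13 (median -0.03), beside 4.37% and 1.34% of all genes. The lower member was Des, the muscle filament desmin (-0.19, adjusted p = 0.019), and it was not called without WT library 1 (-0.17, adjusted p = 0.16), WT library 2 (-0.21, adjusted p = 0.077) or knockout library 2 (-0.14, adjusted p = 0.16), and its change was 0.34 in pericyte-like cells alone.

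**Figure D4:**
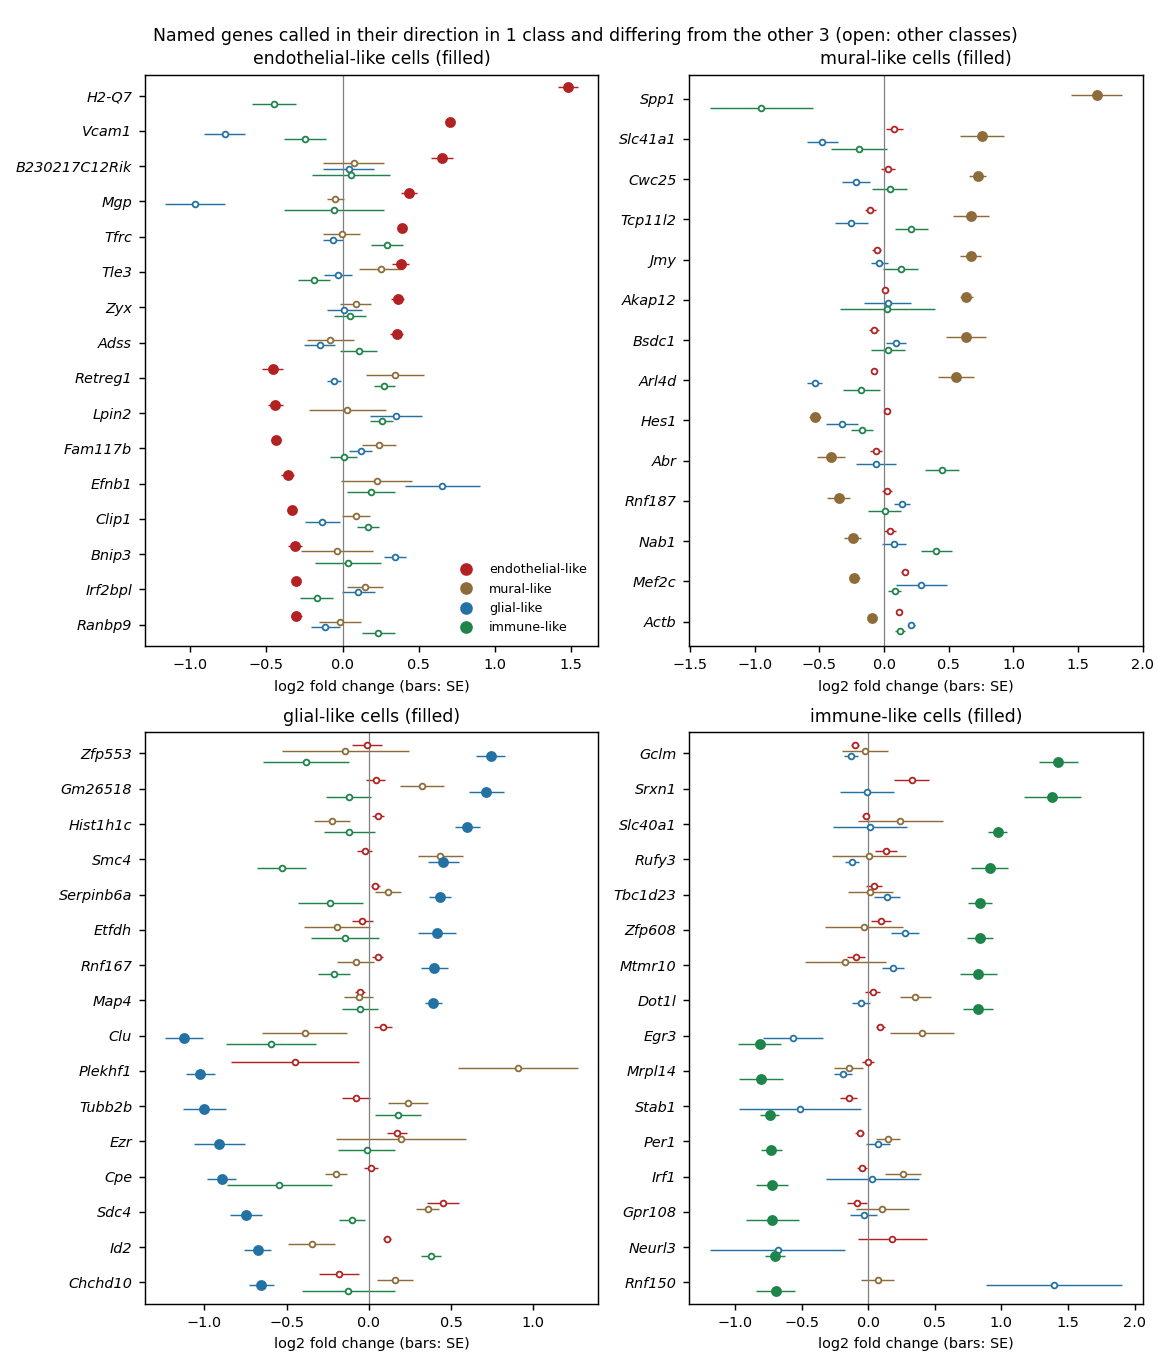
Log2 change of knockout over WT (horizontal axes, bars are SE) for named genes called in that direction in 1 class and differing there from the mean of the other 3, 1 panel per class; filled symbols are the class itself and open symbols the other classes. Spp1 in mural-like cells (1.64), H2-Q7 in endothelial-like cells (1.48) and Gclm in immune-like cells (1.43) lie farthest to the right.

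Glial-like sums mix oligodendrocyte-like cells with fewer astrocyte-like cells, whose share was lower in knockout, so subclass values stand beside the glial results. Of 7 reactive astrocyte genes tested 4 were lower and none higher (median -0.76), beside 4.33% of all genes called lower. In astrocyte-like cells 2 of 4 were lower and in oligodendrocyte-like cells 2 of 6, with none higher in either. Gfap, the intermediate filament of reactive astrocytes, stood at 298 and 319 CPM in WT and 65.0 and 63.7 in knockout astrocyte-like cells (-2.24, SE 0.19, adjusted p = 1.24e-10), far apart and with little spread, and at -2.31 in the glial-like sum. Vim, vimentin, was 219 and 199 against 84.8 and 127 CPM in astrocyte-like cells (-0.93, adjusted p = 0.0033). Serpina3n, an acute-phase protease inhibitor, fell in oligodendrocyte-like cells from 16.9 and 13.7 to 3.22 and 2.34 CPM (-2.40, adjusted p = 9.33e-10).

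Other astrocyte genes fell within astrocyte-like cells too. Aqp4, the endfoot water channel, stood at 1056 and 1045 CPM in WT and 554 and 647 in knockout astrocyte-like cells (-0.78, adjusted p = 7.21e-06). Clu, the lipoprotein clusterin, fell there from 2637 and 2852 to 1569 and 1722 CPM (-0.71, adjusted p = 1.65e-06), and changed by -1.12 in the glial-like sum. Id3, a BMP target, was 641 and 597 against 336 and 321 CPM (-0.89, adjusted p = 8.98e-06) and Sparcl1 2715 and 2813 against 1911 and 2003 (-0.47, adjusted p = 0.001). Knockout lay below WT in both libraries for all 4. Astrocyte-like cells were about 2 to 4% of each library, and only 121 genes were called among them in all.

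In oligodendrocyte-like cells Plekhf1, an endosomal adaptor, fell from 61.8 and 67.3 to 27.1 and 30.3 CPM (-1.10, adjusted p = 9.46e-12). Zfp553 rose in the glial-like sum from 36.7 and 32.8 to 55.2 and 61.1 CPM (0.74, adjusted p = 2.92e-05) and by 0.71 in oligodendrocyte-like cells, and the linker histone Hist1h1c by 0.60 and 0.58. Fth1, ferritin heavy chain, rose from 17460 and 17150 to 21700 and 21490 CPM in glial-like cells (0.32), with 0.26 (adjusted p = 1.05e-10) in oligodendrocyte-like and -0.14 (adjusted p = 0.49) in astrocyte-like cells. Cholesterol synthesis genes were lower in 4 of 20 in the glial-like sum, 3 of 20 in oligodendrocyte-like and none of 20 in astrocyte-like cells. They were higher in none of these. The shares of all genes called lower were 4.33%, 5.03% and 0.831% in the same order. Fdps, farnesyl diphosphate synthase, changed by -0.33 (adjusted p = 3.98e-05) in oligodendrocyte-like cells, while its glial-like call was lost without knockout library 2 (-0.31, adjusted p = 0.070).

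Myelin genes did not share a direction across the 2 ways of grouping. Of 15 in the glial-like sum 4 were higher and 1 lower (median 0.05), whereas in oligodendrocyte-like cells 1 was higher and 3 lower. Over all genes, 4.69% were higher and 4.33% lower in glial-like and 5.74% and 5.03% in oligodendrocyte-like cells. Mal, a membrane protein of myelin, rose in both (0.17 and 0.10), and Qdpr was 2397 and 2343 CPM in WT and 1961 and 2000 in knockout oligodendrocyte-like cells (-0.19, adjusted p = 5.15e-07). Haemoglobin UMIs were fewer in knockout glial-like sums, 725 and 220 CPM summed in WT against 47.4 and 43.3, with WT library 1 the highest. In oligodendrocyte-like cells 4 of 4 haemoglobin genes were lower and in astrocyte-like cells 1 of 4, beside 5.03% and 0.831% of all genes. The fall was not confined to glial-like cells. In endothelial-like cells 5 of 5 were lower (9.01% of all genes), at 3691 and 4089 CPM summed in WT against 2686 and 3440. In smooth muscle-like and microglia-like cells 4 of 4 were lower (medians -2.42 and -2.72), beside 0.874% and 4.8% of all genes. None of 4 was called in mural-like, immune-like or pericyte-like cells.

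Immune-like cells had the most genes of the narrower set. Gclm, the modifier subunit of glutamate-cysteine ligase in glutathione synthesis, led the higher genes at 31.1 and 48.1 CPM in WT and 109 and 103 in knockout (1.43, SE 0.15, adjusted p = 2.26e-06), and its change lay 1.52 above the other classes (adjusted p = 4.00e-12). In endothelial-like cells Gclm was called slightly lower (-0.10, adjusted p = 0.016), but not without WT library 2 (-0.07, adjusted p = 0.19) or knockout library 2 (-0.09, adjusted p = 0.10). Srxn1, sulfiredoxin, which repairs oxidised peroxiredoxins, stood at 10.8 and 11.4 CPM in WT and 32.7 and 25.1 in knockout (1.38, adjusted p = 0.000238). Slc40a1, the iron exporter ferroportin, stood at 241 and 246 CPM in WT and 443 and 514 in knockout (0.97, adjusted p = 3.98e-08). No knockout value reached down to WT for these 3 genes, which was a condition for naming them. Microglia-like cells alone gave 1.44 for Gclm and 1.22 for Srxn1.

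The promoters of the leading pair are shown because both genes are textbook targets of the oxidative stress factor Nrf2. A form of its binding motif can be searched for. Each sequence is the 250 bases before the RefSeq transcription start in GRCm38.p6, plus strand, 5′ to 3′, with a match to TGACNNNGC on either strand in capitals. Gclm spans chr3:122245307-122245556 and Srxn1 chr2:152105274-152105523.
Gclm: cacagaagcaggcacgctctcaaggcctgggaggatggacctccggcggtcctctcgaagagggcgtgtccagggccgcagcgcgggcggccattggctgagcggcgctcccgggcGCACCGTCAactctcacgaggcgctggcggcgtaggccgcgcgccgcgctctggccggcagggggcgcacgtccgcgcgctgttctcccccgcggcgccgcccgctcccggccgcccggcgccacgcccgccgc
Srxn1: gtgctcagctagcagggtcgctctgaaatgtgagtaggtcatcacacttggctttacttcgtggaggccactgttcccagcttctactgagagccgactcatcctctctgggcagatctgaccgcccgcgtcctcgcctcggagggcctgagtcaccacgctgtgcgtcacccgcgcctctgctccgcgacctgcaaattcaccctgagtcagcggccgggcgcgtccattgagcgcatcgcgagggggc
Gclm held 1 match, on the minus strand and 134 bases before the start, and Srxn1 held 0 in this window. Over all promoters of this length, 3338 of 32851 held at least 1 match (10.2%). A match is a stretch of letters and not a measured binding site. Only this exact pattern was searched, and forms with another letter at a fixed place were not counted. The Srxn1 window holds tgagtcagc, which differs from the pattern at 1 fixed letter. A count of 0 therefore does not show that an Nrf2 site is absent.

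Genes lower in immune-like cells included regulators of inflammation and early-response genes. Nfkbia fell from 1447 and 1395 to 896 and 907 CPM (-0.66, adjusted p = 3.98e-08), 0.82 below the other classes and opposite to mural-like cells. Per1, a circadian and glucocorticoid-responsive gene, fell from 193 and 184 to 110.2 and 118 CPM (-0.73, adjusted p = 3.75e-06), Fkbp5, another glucocorticoid-responsive gene, from 259 and 251 to 161 and 158 (-0.68), and Irf1, an interferon regulatory factor, from 83.4 and 82.4 to 47.0 and 53.7 (-0.72). Ier2, an immediate early gene, fell from 299 and 253 to 147 and 161 CPM (-0.84, adjusted p = 1.04e-06). Of 20 immediate early genes in this class 4 were higher and 10 lower (median -0.23), beside 6.97% and 3.9% of all genes. Their changes lay below those of the other classes for 8 and above for 2.

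Genes of microglial state moved in both directions. Of 13 homeostatic genes 1 was higher and 3 were lower in immune-like cells (median -0.06), and in microglia-like cells 1 was higher and 7 lower (median -0.13), beside 4.8% of all genes lower. Of 15 activation genes 3 were higher and 5 lower in immune-like cells (median -0.23), beside 6.97% and 3.9% of all genes. Of 13 in microglia-like cells 4 were higher and 4 lower (median -0.23), beside 8.35% and 4.8%. Lyz2, lysozyme, stood at 975 and 987 CPM in WT and 561 and 619 in knockout immune-like cells (-0.73, adjusted p = 6.55e-08), but by -0.36 in microglia-like cells alone. Apoe changed by -0.41 in the class and by -0.24 (adjusted p = 0.065) in microglia-like cells. Fth1 rose from 3438 and 3583 to 4599 and 4709 CPM (0.41) and Cd63, a lysosomal tetraspanin, from 461 and 488 to 628 and 621 (0.40). Stab1, a scavenger receptor of perivascular macrophages, fell from 214 and 217 to 128 and 130.1 CPM (-0.74), against -0.35 (adjusted p = 0.0072) in microglia-like cells.

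Genes of the mitochondrial genome were lower in immune-like cells, 6 of 13 with none higher (median -0.14), beside 3.9% and 6.97% of all genes. Of their changes 9 lay below those of the other classes. mt-Co3 fell from 4177 and 4332 to 3533 and 3728 CPM (-0.23) and mt-Nd1 from 1579 and 1557 to 1316 and 1359 (-0.23). Of the same 13 genes 7 were lower in microglia-like cells, beside 4.8% of all genes. In endothelial-like cells 4 were higher and 1 lower (median 0.03), beside 11% and 9.01% of all genes. In mural-like cells 3 were higher and none lower (median 0.09), beside 4.37% and 1.34%. In glial-like and in oligodendrocyte-like cells 7 of 13 were higher and none lower, beside 4.69% and 5.74% of all genes higher. In astrocyte-like cells none was called (median -0.08). Chemokine genes also split, with 4 higher and 6 lower of 17 in immune-like cells, beside 6.97% and 3.9% of all genes. Of these 17 changes 7 lay below the other classes and 1 above. In endothelial-like cells 10 of 15 were higher and 1 lower, beside 11% and 9.01% of all genes. Ccl7 fell in immune-like cells (-0.53, adjusted p = 0.00114) but rose in microglia-like cells alone (1.13, adjusted p = 0.000266).

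**Figure D5:**
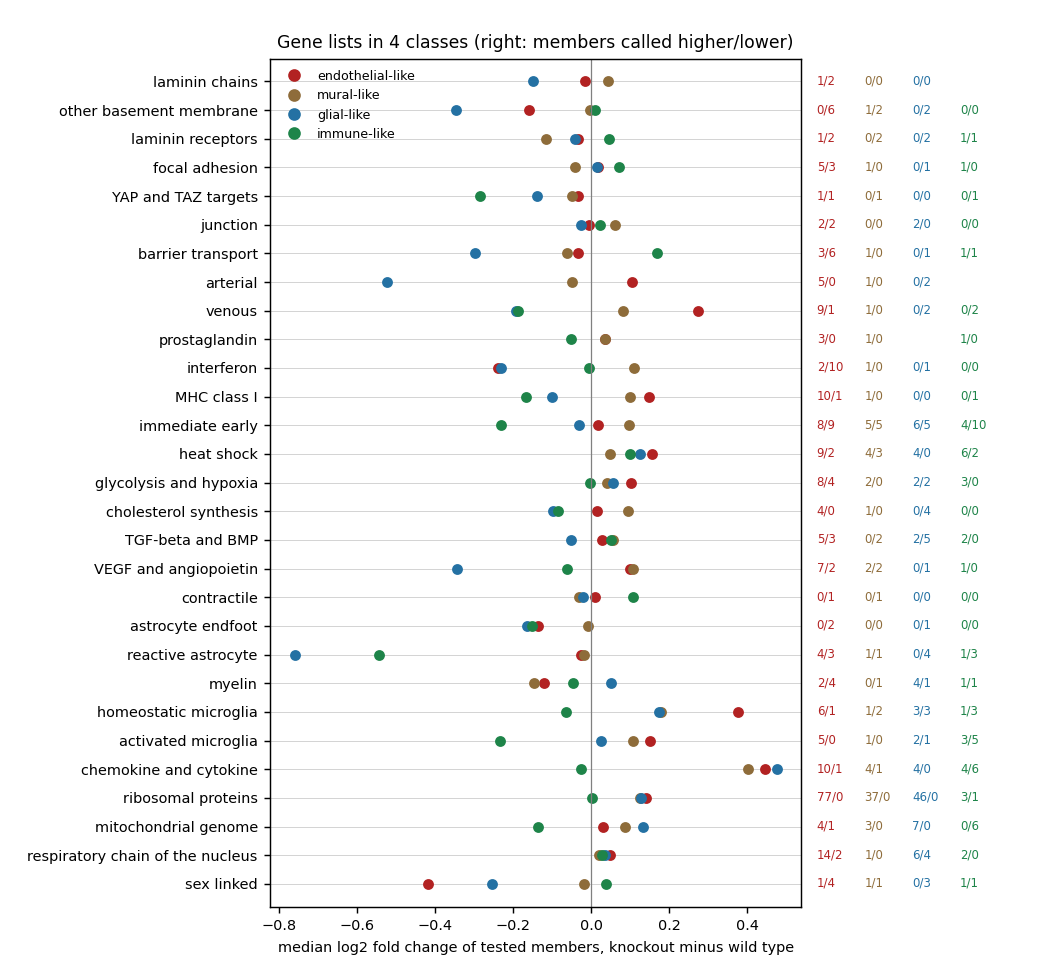
Median log2 change of knockout over WT (horizontal axis) of each gene list with at least 5 tested members, in the 4 classes; the numbers at the right count members called higher and lower. Reactive astrocyte genes lie at -0.76 in glial-like cells, interferon genes at -0.24 and chemokine genes at 0.45 in endothelial-like cells.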

How the data were processed

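The data are 10x Chromium 3′ single-cell libraries of brain cortex. The authors deposited raw UMI counts per gene and barcode for each library; the file headers name software version 3.1.0 and the submitters' processing notes name mm10. Kept barcodes had at least 500 genes and under 15% mitochondrial UMIs. Counts were summed per library and class and fitted with edgeR 4.0.16 in R 4.3.3 (quasi-likelihood, filterByExpr, TMM, adjusted p below 0.05). Differences between classes came from a fit of all class sums with a library block, each class against the mean of the other 3. DESeq2 1.42.0, other scalings, filters, subclasses and each library left out were alternatives. The fits were tried on simulated libraries drawn independently, without an effect of pool or of a library shared by its classes. That trial could not show how the fits behave with 1 pool per genotype.

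Total UMIs were 45290640 and 42947188 in WT and 37014662 and 35479306 in knockout. Pairs of libraries differed by more than counting noise (chi-square per degree of freedom 1.58 to 9.28). Intervals cover counting error only.

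Named genes were laminin chains with at least 20 UMIs and the 10 shared genes most changed each way with at least 20 CPM in each class. Per class, the 8 most changed each way that differed from the other classes were named. These had 20 CPM or more, no other class over 10 times higher and both knockout libraries outside both WT libraries. Their lack of overlap was therefore fixed by the rule. Up to 4 called members per list and class were named too. Members outside that rule are named where a small count left them out, where they define a cell type or where a subclass is described, and were chosen after their values were seen. The members and the 37 lists were chosen with earlier results of these data known. Class markers were left out of lists. Promoters are from RefSeq.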

Additional observations from a re-analysis of the deposited data

Results flagged for a closer look

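Changes differed between cell classes under the same genotype contrast, by the interaction test, for 73 genes in endothelial-like, 40 in mural-like, 124 in glial-like and 262 in immune-like cells. Cells outside the 4 classes also differed in share of kept cells between the genotypes: choroid plexus-like cells were 0.065 points higher in knockout, neuron-like cells 0.297 points higher, cells with mixed markers 1.42 points higher and cells with too few markers 0.417 points higher. With cells thinned to 1000 UMIs the neuron-like shares overlapped, at 0.349% and 0.508% in WT and 0.435% and 0.474% in knockout.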

How the results depend on the processing

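Counts of called genes depended on the test and on single libraries. With DESeq2 they were 2524 over all kept cells, 1045 in endothelial-like, 199 in mural-like, 283 in glial-like and 435 in immune-like cells, and 17 genes were called alike in all 4 classes; the share of immune-like calls that were higher moved from 64.1% to 77.7%. Without a filter on low counts 360 mural-like genes were called. Leaving out 1 library gave 2673 to 4388 calls over all kept cells, 2034 to 2155 in endothelial-like, 384 to 502 in mural-like, 139 to 1311 in glial-like and 675 to 1111 in immune-like cells, 12 to 48 shared genes, and 40 to 47 endothelial, 17 to 35 mural, 25 to 146 glial and 125 to 213 immune genes that differed from the other classes.

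With pericyte-, astrocyte- and microglia-like subclasses the calls were 16 mural and 121 glial, 5 shared, and 25, 3, 27 and 99 endothelial, mural, glial and immune genes that differed from the other classes; with smooth muscle- and oligodendrocyte-like subclasses 25 mural genes did. With pericyte-like cells the log2 change reversed for Slc41a1 (-0.27), Jmy (-0.068), Nab1 (0.0042), Ier3 (-0.31), Des (0.34), Gper1 (-0.36) and Vegfa (-0.043), and the endothelial minus mural difference of Lama5 became 0.73. With astrocyte-like cells it reversed for Zfp131 (-0.15), Hspa1a (-1.40), Qdpr (0.35) and Fth1 (-0.14), with oligodendrocyte-like cells for Ezr (0.063), Sdc4 (0.28), Id2 (0.031) and Chchd10 (0.67), and with microglia-like cells for Ccl7 (1.13). The cause was not tested.

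Replicate numbers paired nothing: same-numbered libraries had correlated deviations of -0.06 to 0.05. A fit with the replicate block called 4266 genes over all kept cells, 2864, 392, 1569 and 1454 in endothelial-like, mural-like, glial-like and immune-like cells and 67 shared genes, 53 of the 61 among them. The contrast between classes had no DESeq2 or replicate-block fit. Over all alternatives 3498 values of single genes kept direction and call, 310 lost the call and 18 reversed. Limits are 1 pool per genotype, shallower knockout libraries and few astrocyte-like and pericyte-like cells.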

Other observations

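A list of 24 oxidative stress response genes was drawn up after the values of immune-like cells were seen, so its counts describe and do not test. In immune-like cells 11 of 21 tested were higher and none lower (median 0.41, beside 6.97% of all genes higher), and 9 changes lay above those of the other classes. Osgin1, an oxidative stress-induced growth inhibitor, stood at 18.7 and 16.5 CPM in WT and 62.3 and 68.8 in knockout (1.89, edgeR adjusted p = 9.20e-08). Txnrd1, thioredoxin reductase, stood at 288 and 270.1 against 590.3 and 565 (1.05), Gclc, the catalytic subunit of glutamate-cysteine ligase, at 78.0 and 86.5 against 192 and 180 (1.18), and Prdx1, a peroxiredoxin, at 382 and 384 against 610.2 and 605 (0.67). Knockout lay above WT in each library for these 4 genes. In microglia-like cells 15 of 21 were higher and none lower, beside 8.35% of all genes higher. In endothelial-like cells 10 were higher and 2 lower of 24, beside 11% and 9.01%, and in glial-like cells 3 and 3 of 23, beside 4.69% and 4.33%. Hmox1, haem oxygenase 1, was not called in immune-like cells (0.16, adjusted p = 0.17). Of 18 list genes with a promoter, 4 held the motif TGACNNNGC, beside 10.2% of all promoters searched.

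Of 7 sex-linked genes tested in endothelial-like cells 4 were lower and 1 higher, beside 9.01% and 11% of all genes. The Y-linked Ddx3y stood at 111 and 109 CPM in WT and 82.8 and 82.2 in knockout (-0.42, adjusted p = 2.96e-11), a change 0.33 below that of the other classes (adjusted p = 0.0029), and Eif2s3y stood at 30.8 and 31.2 against 21.8 and 22.0 (-0.50). The mix of sexes in each pool is not given in the sources used here, and its part was not tested.

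Within 10 Mb of Lama5 on chromosome 2, 11 of 91 other tested genes were called in endothelial-like cells (12.1%), beside 19.97% of all tested genes.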
